A study of Mus musculus with 8 samples.

Results

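Laminins are the large three-stranded glycoproteins of basement membranes, the sheets of matrix that underlie epithelia and surround muscle, fat and nerve cells. Each molecule joins 1 alpha, 1 beta and 1 gamma chain, and each chain is the product of its own gene. The 9 genes described here are the alpha chain genes Lama1, Lama2, Lama3, Lama4 and Lama5, the beta chain genes Lamb1, Lamb2 and Lamb3, and the gamma chain gene Lamc1. They were taken by gene symbol from a deposited table of 22274 genes, and all 9 were present. Lamc3, a further gamma chain gene, is given beside them.

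The study measured RNA from RFB cells, a mouse kidney line labelled as fibroblast, by RNA sequencing. All 8 libraries came from cells that received TGF-β, a cytokine that raises matrix production in fibroblasts. Of these, 4 had no further treatment and 4 had chaetocin as well. This compound is a fungal metabolite used to inhibit histone H3 lysine 9 methyltransferases of the SUV39 family, and it also acts on redox enzymes. No source used here gives a dose or a time, and no library without TGF-β was analysed here. The series' design text mentions cells with SUV39H1 knocked down, but the labels of these libraries name no knockdown. No label states that the libraries of a group are separate cultures, so each p-value reflects only how these libraries vary, and that variation may be technical.

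Laminin chains are secreted as trimers whose name lists the chains, so that laminin-511 is made of alpha 5, beta 1 and gamma 1. Laminin-332 anchors epithelia through hemidesmosomes. Laminin-111 is the early embryonic form, laminin-211 that of muscle and nerve, laminin-411 that of vessels, and laminin-511 and laminin-521 those of many adult basement membranes including the kidney glomerulus. Cells bind laminin through integrins and through dystroglycan.

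Total counts were 20135312 to 23664084 with TGF-β alone. Chaetocin replicate 1 had 22591935, and replicates 2 to 4 had 14421225 to 15084876. The label fibroblast was only partly met by marker genes. Fn1, Vim and Col1a1 were at 35960, 1163 and 232.9 CPM (counts scaled to a common library depth) with TGF-β alone, whereas the fibroblast genes Dcn and Lum were at 0.130 and 0.0124 CPM. Epithelial Epcam stood at 285.3 ± 7.44 CPM and Cdh1 at 650.5 ± 8.10 CPM (SD, n = 4). Summed over 16 tubule epithelial markers, the level was 4927 to 5113 CPM with TGF-β alone and 7642 to 7966 CPM with chaetocin, and the transporter gene Slc34a1 was near 0 in both groups. That rise lay mostly in the keratin genes, Krt8 (group means 1582 and 3615 CPM) and Krt18 (812.4 and 1783 CPM) above all. Epcam and Cdh16 rose slightly, at log2 fold changes of 0.08 and 0.15, and Slc12a1 rose from 0.253 to 9.30 CPM. Cldn4, Pax8, Pax2, Lrp2 and Aqp1 fell, and Cdh1 fell slightly, at -0.075. Summed over 12 fibroblast markers, mostly Fn1, it was 36570 to 38390 and 16390 to 17640 CPM. Summed leukocyte markers were at 255.7 to 295.9 and 154.7 to 187.7 CPM, and of the 8 tested 3 rose and 5 fell. With TGF-β alone C1qa, Csf1r and Ptprc were at 54.5, 50.1 and 20.5 CPM, and Cd3e was at 0. Of the 13 tested epithelial markers 6 rose and 6 fell, and of the 11 tested fibroblast markers 1 rose and 6 fell. Over all tested genes 42.0% rose and 38.8% fell. Among the rises, epithelial Slc12a1 and fibroblast Dcn passed the filter against low counts only through the chaetocin libraries, so their falls could not have been called. What part these marker shifts had in the laminin values was not tested.

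Of the 9 laminin chains, 8 changed with chaetocin. Lama2 and Lama4 rose, and Lama1, Lama3, Lamb1, Lamb2, Lamb3 and Lamc1 fell. Lama5 was not called. A call is an adjusted p under 0.05 in edgeR's quasi-likelihood test, with Benjamini-Hochberg adjustment over all 14608 tested genes. The treatment moved most of the transcriptome: 80.7% of tested genes were called, 42.0% higher and 38.8% lower. That 8 of 9 chains were called is therefore close to the background share. In 8 of the 9 chains the CPM of both groups did not overlap, which held for 74.7% of tested genes. Called changes of at least 2-fold made up 24.6% of tested genes and were found in 1 chain, Lama2. The median log2 fold change of the chains was -0.15, against 0.02 over all tested genes. In bulk RNA, fewer cells that express a gene and less RNA per cell cannot be told apart.

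**Figure D1:**
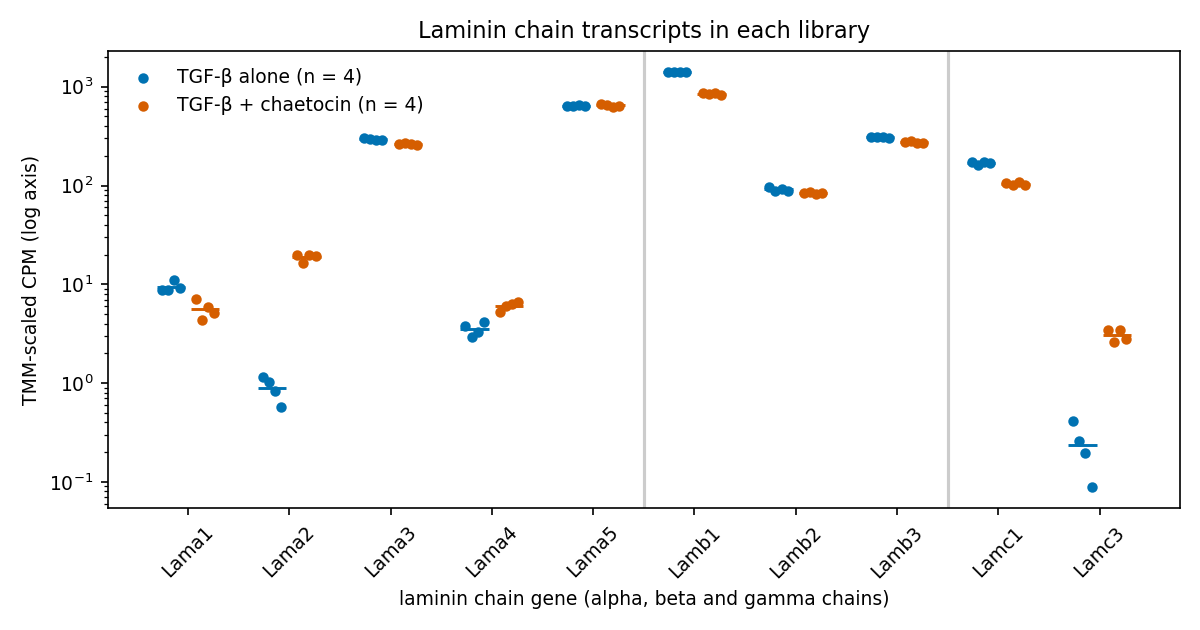
TMM-scaled CPM of the 9 laminin chains and of Lamc3 in each library, on a log axis; points are libraries and bars are group means. Lama2 lies at 0.572 to 1.15 CPM with TGF-β alone and 16.6 to 19.7 CPM with chaetocin, while the points of Lama5 overlap.

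Lama2 encodes the alpha chain of laminin-211, whose loss causes a congenital muscular dystrophy. With TGF-β alone it was at 1.15, 1.03, 0.840 and 0.572 CPM in replicates 1 to 4, from 25, 20, 17 and 13 counts. With chaetocin it reached 19.6, 16.6, 19.7 and 19.5 CPM, from 459, 260, 296 and 305 counts. Every chaetocin library was far above every library without it. The fitted change was 21.0-fold, a log2 fold change of 4.39 ± 0.14 (SE; edgeR adjusted p = 4.7e-21). A two-sided exact test that permuted the libraries, on log2(CPM + 1), gave p = 0.0286, the smallest possible with 4 against 4 libraries. The gene lies on chromosome 10 of GRCm38, positions 26980036 to 27619758 on the minus strand, and 631 of its exon bases overlap Gm48084 on the opposite strand. No source used here says whether reads were counted by strand, so the Lama2 counts could hold reads of that transcript.

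Lamb1, an abundant chain gene, fell. Its fitted change was the lowest of the 9, although that of Lama1 (-0.72) lay within the error. It encodes the beta chain shared by laminin-111, laminin-211, laminin-411 and laminin-511. Its level was 1414, 1417, 1394 and 1425 CPM with TGF-β alone and 865.6, 852.8, 859.5 and 828.1 CPM with chaetocin. The groups were well apart and the spread within each was small. The log2 fold change was -0.73 ± 0.02 (SE; edgeR adjusted p = 4.5e-22; exact permutation p = 0.0286). Lamb1 lies on chromosome 12, positions 31265234 to 31329644 on the plus strand. By mean CPM it ranked 55 among the tested genes.

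Start-site windows from RefSeq (GRCm38.p6) were found for 5 of the 9 chains. They are printed for Lama2, Lamb1 and Lama5, the chain with the highest fitted change, the one with the lowest and the one without a call, because these windows differ strongly in base composition. Each runs 5′ to 3′ on the strand of the gene and ends at the RefSeq start, or earlier where a GENCODE exon begins. Capitals mark GC boxes, GGGCGG or its reverse complement. The windows are chr10:27616943-27617192 on the minus strand for Lama2, chr12:31265043-31265233 on the plus strand for Lamb1 and chr2:180225860-180226109 on the minus strand for Lama5.
Lama2: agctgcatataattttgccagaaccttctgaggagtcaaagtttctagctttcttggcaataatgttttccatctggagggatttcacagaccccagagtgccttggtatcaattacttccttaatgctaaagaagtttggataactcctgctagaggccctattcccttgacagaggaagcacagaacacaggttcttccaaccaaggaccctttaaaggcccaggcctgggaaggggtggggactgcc
Lamb1: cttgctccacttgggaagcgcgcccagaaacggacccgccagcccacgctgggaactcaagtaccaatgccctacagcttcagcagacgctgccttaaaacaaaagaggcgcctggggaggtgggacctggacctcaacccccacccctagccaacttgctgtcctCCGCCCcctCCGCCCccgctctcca
Lama5: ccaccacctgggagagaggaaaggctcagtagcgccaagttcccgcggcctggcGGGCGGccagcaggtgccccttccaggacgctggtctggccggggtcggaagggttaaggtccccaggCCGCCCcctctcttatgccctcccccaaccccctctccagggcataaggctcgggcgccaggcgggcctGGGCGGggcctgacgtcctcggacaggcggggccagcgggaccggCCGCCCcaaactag

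The 250 bases before the RefSeq start of Lama2 held 0 CG dinucleotides and were 47.2% G or C. The same window held 14 CG dinucleotides in Lamb1 and 19 in Lama5, at 62.0% and 72.4% G or C. Over 32851 mouse windows of that length the median was 6 CG dinucleotides and 52.4% G or C. Of the other chains with a window, Lamb2 had 3 and the 2 start sites of Lamb3 had 2 and 3. GC boxes were found 2 times in Lamb1, starting 84 and 75 bases before the start, and 4 times in Lama5, and in none of the windows of Lama2, Lamb2 and Lamb3. A GC box is present in 32.7% of all windows. On either strand, 4 further patterns had no match in any of these chain windows, the AP-1 site TGANTCA (6.75% of all windows), the TATA box TATAAA (12.4%), the E-box CACGTG (6.02%) and the antioxidant element core TGACNNNGC (10.2%). A match is a string of letters and no match says only that these letters are absent from the window. GENCODE lists several starts for Lama2: those of its coding transcripts lie downstream of the RefSeq start, and 1 noncoding transcript starts upstream of the window.

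The other alpha chains moved much less than Lama2. Lama4, the alpha chain of endothelial and mesenchymal laminin-411, was at 3.77, 2.94, 3.31 and 4.18 CPM with TGF-β alone and 5.21, 6.07, 6.27 and 6.57 CPM with chaetocin. All chaetocin libraries were higher, at a log2 fold change of 0.75 ± 0.14 (SE; edgeR adjusted p = 1.8e-05). These values rest on 57 to 122 counts per library. The summed level of 8 endothelial markers was 66.6 to 72.2 CPM with TGF-β alone and 98.0 to 104.5 CPM with chaetocin. That difference came mostly through Kdr (group means 5.24 and 29.6 CPM). Of these markers 4 were higher, 2 lower and 2 not called (all tested genes: 42.0% higher, 38.8% lower). What part these markers' change had in the Lama4 values was not tested. Lama1, the alpha chain of embryonic laminin-111, was at 8.77, 8.71, 11.1 and 9.11 CPM with TGF-β alone. With chaetocin it was at 7.05, 4.35, 5.94 and 5.10 CPM. No chaetocin library reached the lowest library without it, and the log2 fold change was -0.72 ± 0.13 (SE; edgeR adjusted p = 7.9e-06). The Lama1 values rest on 169 to 224 counts per library with TGF-β alone and 68 to 165 with chaetocin.

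Lama3 and Lama5 made up nearly all alpha chain transcripts, and both changed little. Lama3, the alpha chain of laminin-332, was at 300.0, 296.0, 286.1 and 291.8 CPM with TGF-β alone and at 261.5, 271.0, 263.5 and 259.2 CPM with chaetocin. The groups were apart by a small margin (log2 fold change -0.15 ± 0.03 SE; edgeR adjusted p = 2.3e-06). Scaling by total count put it at -0.04 with no call (edgeR adjusted p = 0.132). Of its exon bases, 197 overlap Gm29200 on the opposite strand. Lama5, the alpha chain of laminin-511 and laminin-521, was at 640.0, 637.1, 657.6 and 637.9 CPM with TGF-β alone and 669.9, 660.5, 623.8 and 644.0 CPM with chaetocin. Its groups overlapped, and its log2 fold change of 0.02 had a 95% interval of -0.03 to 0.06 (edgeR adjusted p = 0.560). Under total-count scaling Lama5 was called higher at 0.13 (edgeR adjusted p = 1.4e-05). Total-count scaling raised the median of all genes by 0.11 on the log2 scale, so calls for changes of that size depended on the scaling.

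The 2 remaining beta chains fell slightly. Lamb3, the beta chain of laminin-332, was at 310.4, 313.0, 309.5 and 303.0 CPM with TGF-β alone and 275.9, 281.0, 272.5 and 272.2 CPM with chaetocin. Its log2 fold change was -0.17 ± 0.02 (SE; edgeR adjusted p = 3.5e-07), and -0.05 under total-count scaling (edgeR adjusted p = 0.0452). Lamb2, the beta chain that replaces beta 1 in the mature glomerulus and at the neuromuscular junction, was at 95.6, 88.9, 92.5 and 88.3 CPM with TGF-β alone. It was at 83.3, 85.4, 82.8 and 84.1 CPM with chaetocin. The gap between groups was smaller than the spread within the TGF-β group, and the log2 fold change of -0.12 ± 0.03 (SE; edgeR adjusted p = 0.0016) shrank to -0.01 under total-count scaling (edgeR adjusted p = 0.830).

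Lamc1 fell and Lamc3 rose. Lamc1, the gamma chain of most laminins, was at 174.5, 161.7, 171.9 and 168.4 CPM with TGF-β alone and 106.1, 101.6, 108.9 and 102.4 CPM with chaetocin. All 4 chaetocin libraries were lower, at a log2 fold change of -0.69 ± 0.03 (SE; edgeR adjusted p = 1.7e-17). Lamc1 lies on chromosome 1, positions 153218922 to 153332786 on the minus strand. Lamc3 was barely present with TGF-β alone, at 2 to 9 counts per library. It had 41 to 80 counts with chaetocin, with 0.239 ± 0.136 CPM in the first group and 3.08 ± 0.429 CPM in the second (SD, n = 4 each; log2 fold change 3.67 ± 0.29 SE; edgeR adjusted p = 6.5e-12). Lamc3 passed the filter against low counts only through its chaetocin libraries, so a fall could not have been called. In Lamc3, 382 exon bases overlap Gm13441 on the opposite strand.

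The authors' deposited table gives the same sign of change for 9 of the 9 chains. It lists a log2 ratio of mean FPKM of 4.68 for Lama2, -0.61 for Lamb1 and 0.13 for Lama5, with an FDR of 0.512 for Lama5. For Lama3 and Lamb3 the authors' deposited table lists ratios of only -0.06 each, beside FDR values of 6.1e-09 and 3.1e-11.

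**Figure D2:**
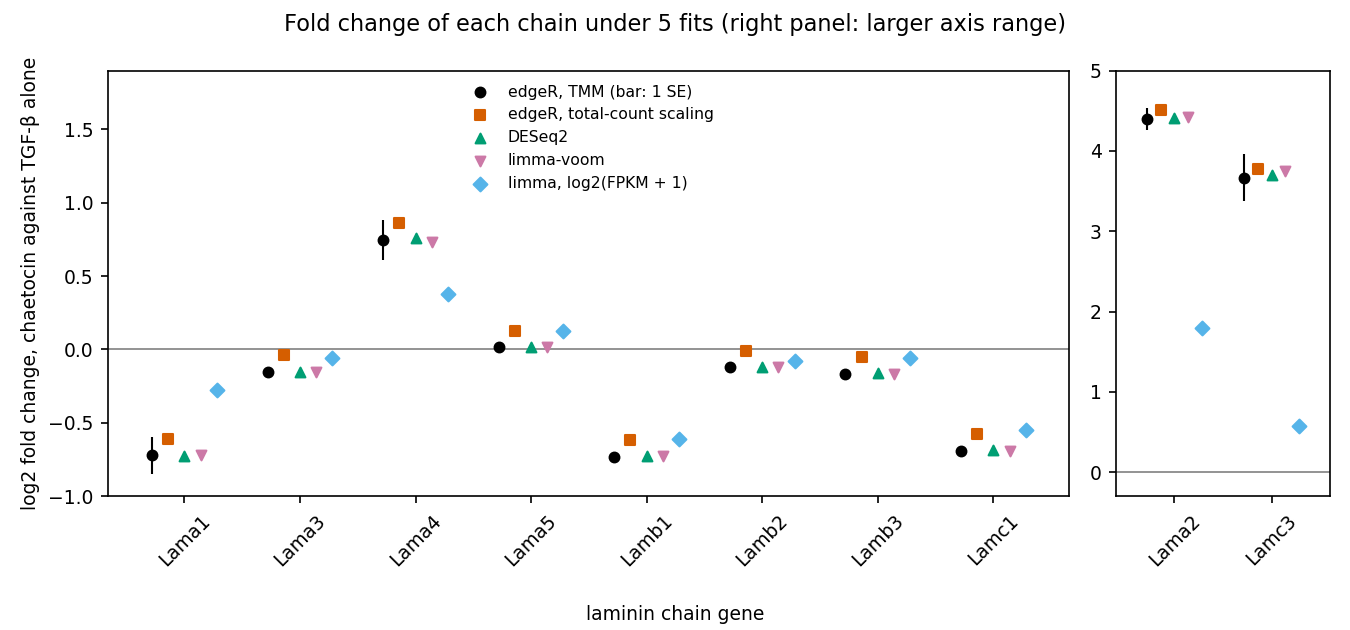
Log2 fold change of each chain, chaetocin against TGF-β alone, under edgeR with TMM (bars, 1 SE) and under alternatives. The alternatives are edgeR with total-count scaling, DESeq2, limma-voom and limma on log2(FPKM + 1) without the FPKM filter. Lama2 and Lamc3 have their own panel with a larger range. Lama3, Lama5, Lamb2 and Lamb3 lie close to 0 under each of these fits, and the FPKM fit gives smaller changes for the low genes Lama1, Lama2, Lama4 and Lamc3.

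Levels of different chains were compared per length, with the deposited FPKM (fragments scaled by transcript length and library depth). With TGF-β alone the alpha chain order was Lama5 at 54.3 ± 0.911 FPKM, Lama3 at 50.7 ± 0.907, Lama1 at 0.950 ± 0.115, Lama4 at 0.565 ± 0.0827 and Lama2 at 0.113 ± 0.0236 FPKM (SD, n = 4). The ranges of neighbours in that order did not overlap. With chaetocin Lama5 and Lama3 were still the highest, at 59.3 ± 1.81 and 48.8 ± 0.981 FPKM. Lama2, the lowest without chaetocin, was the third, at 2.89 ± 0.485 FPKM, followed by Lama4 at 1.04 ± 0.104 and Lama1 at 0.615 ± 0.124 FPKM. Lama2 rose from 0.0755% to 0.122% of summed alpha chain FPKM to 2.09% to 3.01%. With CPM per kilobase of GENCODE exons in place of FPKM, Lama2 reached a mean of 1.38% in place of 2.56%. On that scale Lama1 (0.691%) lay above Lama4 (0.597%) with chaetocin. Lama5 and Lama3 also stood further apart on it. With TGF-β alone they made up 66.4% and 32.1% of the alpha chains, against 50.9% and 47.6% by FPKM.

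Lamb1 was the highest beta chain per length, at 236.0 FPKM with TGF-β alone and 154.3 FPKM with chaetocin, ahead of Lamb3 at 73.4 and 70.4 and Lamb2 at 20.2 and 19.1 FPKM. Its share of the beta chains was 71.2% to 71.8% with TGF-β alone and 62.9% to 64.1% with chaetocin, and that of Lamb3 was 21.7% to 22.5% and 28.2% to 29.4%. The summed beta chain level fell from 327.1 to 331.7 FPKM to 238.0 to 248.6 FPKM, and most of that came from Lamb1. Summed alpha chains lay at 105.9 to 107.0 and 110.6 to 114.6 FPKM. That difference depended on the scale: as CPM per kilobase of exons the alpha sums were 84.5 to 85.8 and 81.6 to 85.5, which overlap.

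Lamc1 had 20.4 to 21.9 FPKM with TGF-β alone and 13.9 to 14.9 FPKM with chaetocin. The ratio of Lamb1 to Lamc1, chains of the same trimers, was 10.7 to 11.6 and 10.5 to 11.1, overlapping between the groups. The ratio of Lama3 to Lamb3, both chains of laminin-332, was 0.671 to 0.704 and 0.686 to 0.702, also overlapping. By contrast, the ratio of Lamb3 to Lamb1 was 0.303 to 0.316 with TGF-β alone and 0.445 to 0.467 with chaetocin. These ratios are descriptions of transcripts and say nothing of assembled protein.

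**Figure D3:**
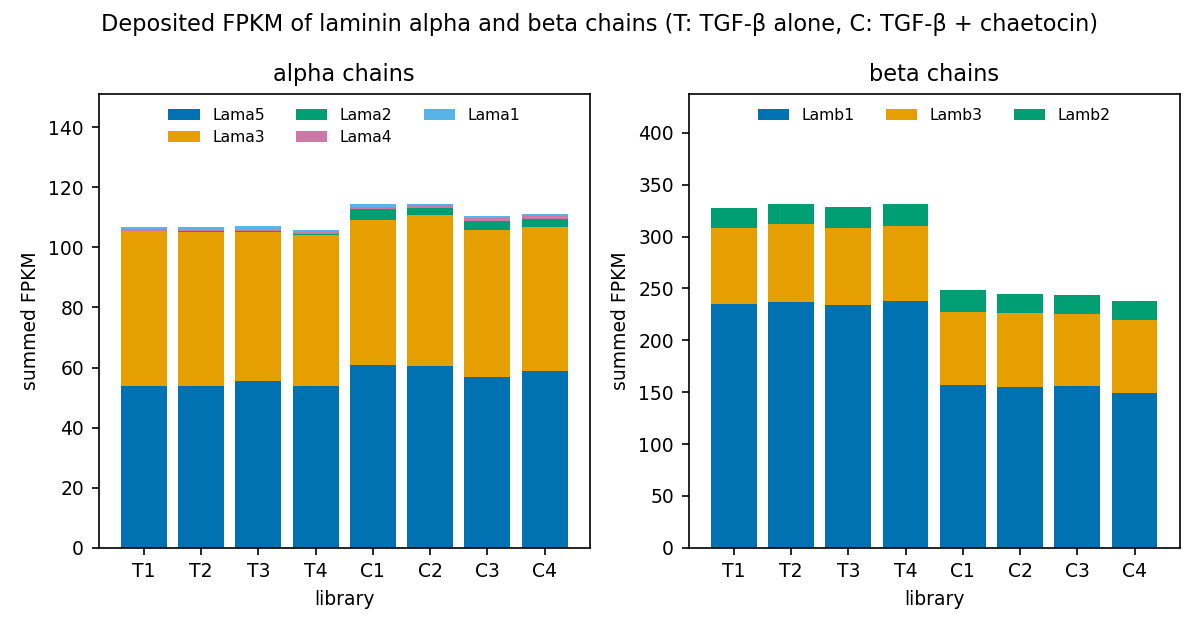
Deposited FPKM of the laminin alpha and beta chains, stacked by class, in the 4 libraries with TGF-β alone (T1 to T4) and the 4 with chaetocin (C1 to C4). The beta chain total falls from 327.1 to 331.7 to 238.0 to 248.6 FPKM, mostly through Lamb1, while the alpha chain total, whose direction depends on the scale, lies at 105.9 to 107.0 and 110.6 to 114.6 FPKM.

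FPKM values depend on the length used for each library and on scaling by total count. Dividing counts by FPKM and total count gives that length, which was 11387 to 11389 bases for Lama5 and 7620 to 7622 for Lamc1 in every library. For Lama3 it was 5555 to 5631 bases, where its merged GENCODE exons hold 10745, so the level of Lama3 beside Lama5 depended on the length used. For Lama2 it ran from 5906 to 9984 bases and for Lamb2 from 3903 to 4844 bases. In these 2 genes FPKM did not follow the counts at a fixed length, and the cause was not tested. For Lamb2, FPKM overlapped between the groups (18.9 to 21.7 and 18.1 to 21.3), although its CPM did not. Lama5, with overlapping CPM, had FPKM of 53.7 to 55.6 and 57.0 to 61.0 that did not overlap. Its length was constant, and the difference lies in the scaling: FPKM are divided by total count, and edgeR with total-count scaling gave Lama5 a log2 fold change of 0.13. In total 7 of the 9 chains had FPKM that did not overlap between the groups, against 70.3% of tested genes.

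Most laminin receptor genes fell. Of 13 tested, 9 fell and 4 rose, where 38.8% of all tested genes fell and 42.0% rose. Their median log2 fold change was -0.35. Itgb1, the beta subunit of most laminin-binding integrins, went from 5627 ± 87.2 to 3937 ± 87.9 CPM (SD, n = 4 each; log2 fold change -0.52; edgeR adjusted p = 5.3e-19). Itga2, a collagen and laminin receptor subunit, had a log2 fold change of -1.26, and Dag1, which encodes dystroglycan, one of -0.42. Itgb4, the hemidesmosome integrin subunit that binds laminin-332, rose from 368.1 ± 5.45 to 643.1 ± 4.02 CPM (log2 fold change 0.81, edgeR adjusted p = 1.3e-22). The syndecan gene Sdc4 rose by 0.72, whereas the syndecan genes Sdc1 and Sdc2 had changes of -0.96 and -0.72. Itga6, the partner subunit of Itgb4, fell by 0.26 on the log2 scale. Dag1, Itga6, Sdc1 and Sdc2 were chosen after their values were seen.

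Dystroglycan binds laminin through a sugar chain built by a set of enzymes. Of 17 tested genes of that pathway, 10 fell, 2 rose and 5 were not called, with a median of -0.28. Of all tested genes 80.7% were called, 38.8% lower and 42.0% higher. Pomgnt1, a mannose-modifying transferase gene, rose from 59.6 ± 1.58 to 86.2 ± 1.33 CPM (SD, n = 4 each; log2 fold change 0.53; edgeR adjusted p = 5.8e-14). Dpm2, a subunit of the mannose donor synthase, rose by 0.33.

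Most of the other basement membrane genes fell. Of 24 tested, 15 fell, 4 rose and 5 were not called, beside 38.8% lower and 42.0% higher over all tested genes. The median log2 fold change was -0.47. Pxdn, the peroxidase that cross-links collagen IV, fell from 979.3 ± 12.0 to 260.1 ± 13.9 CPM and Col4a4 from 635.4 ± 13.2 to 205.2 ± 4.53 CPM (SD, n = 4 each; edgeR adjusted p = 1.95e-28 and 4.0e-28). Nid1, which ties laminin to collagen IV, had a log2 fold change of -0.34, and the proteoglycan genes Hspg2 and Agrn had changes of -1.19 and -0.60. These 3 were chosen after their values were seen. Tinagl1, a laminin-binding matrix gene, rose by 0.70, and Col17a1, the hemidesmosome collagen, rose by 3.57 from a level of 0.429 ± 0.240 CPM. Among the rises, Col17a1, Frem1 and Smoc1 passed the filter against low counts only through the chaetocin libraries.

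Genes for proteases that can cut laminin chains were lower for 8 of the 10 tested and higher for 2 (all tested genes: 38.8% lower, 42.0% higher), with a median of -1.13. Bmp1, which trims the chains of laminin-332 among other substrates, fell from 828.5 ± 12.8 to 264.5 ± 9.72 CPM (SD, n = 4 each; log2 fold change -1.65; edgeR adjusted p = 5.0e-28), and the gelatinase gene Mmp9 fell by 3.22. Tll2, a relative of Bmp1, rose by 4.09 from 0.143 ± 0.0359 CPM, and Hpn, a membrane serine protease gene, rose by 0.23. Tll2 passed the filter against low counts only through the chaetocin libraries. Genes of the cytoplasmic side of laminin adhesions rose in 10 of 16 cases and fell in 4 (all tested genes: 42.0% higher, 38.8% lower), with a median of 0.27. Of those that rose, Sgca and Sgcd passed the filter against low counts only through the chaetocin libraries. Both plakin genes of hemidesmosomes were among the rises, Plec at 0.37 and Dst at 0.38. Focal adhesion genes went both ways: Vcl and Parva fell, at -0.20 and -0.30, Tln1, Lims1 and Fermt2 rose, at 0.21, 0.29 and 0.25, and Ilk, at 0.02, was not called. The last 4 of these were chosen after their values were seen. Total-count scaling gave 11 adhesion genes higher and 4 lower, and 5 higher and 13 lower for the basement membrane list.

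Netrins share the N-terminal laminin domain and are guidance factors, most but not all of them secreted. Of 6 listed, 4 were tested, of which 3 fell and 1 rose (all tested genes: 38.8% lower, 42.0% higher). Ntn1 fell from 33.2 ± 1.53 to 11.3 ± 0.881 CPM and Ntn4, which binds laminin gamma chains, from 74.6 ± 2.94 to 42.4 ± 1.76 CPM (SD, n = 4 each; edgeR adjusted p = 3.0e-18 and 3.0e-16). Ntn3 rose by 3.87 on the log2 scale from 0.290 ± 0.107 CPM, and passed the filter against low counts only through the chaetocin libraries. Of 32 genes that the naming rule picked beyond the laminin chains, 11 share exon bases with another gene, among them Itgb4, Pomgnt1, Plec, Dst, Vcl and Ntn3, so their counts are less certain.

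**Figure D4:**
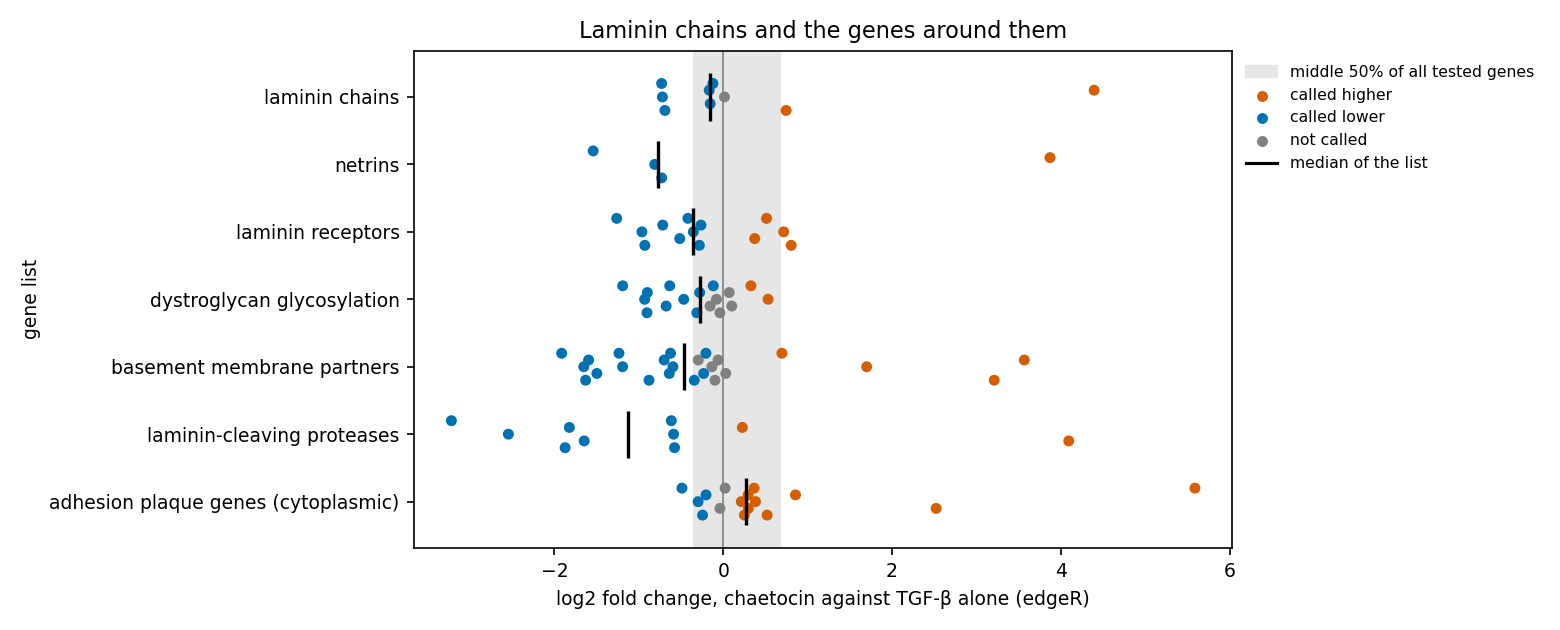
Log2 fold change of each tested gene in the laminin list and in 6 lists around it; colours give the edgeR call, black bars the list medians and the grey band the middle 50% of all tested genes (-0.35 to 0.67). The medians lie at -0.15 for the laminin chains, -0.47 for basement membrane partners, -1.13 for laminin-cleaving proteases and 0.27 for cytoplasmic adhesion genes.

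Profiles most like those of the chains were sought among 9767 tested genes whose log2 CPM averaged 3 or more. Genes with predicted or clone names and repeated symbols were left out. The measure was the Euclidean distance of log2(CPM + 1) over the 8 libraries after each gene's own mean was removed, so it mainly reflects the size of the change with chaetocin. Pdia4, a chaperone of the endoplasmic reticulum, was nearest to Lamb1 (distance 0.0438; log2 fold changes -0.75 and -0.73). Galc, a lysosomal galactosidase gene, was nearest to Lamc1 (0.0476), the catenin gene Ctnna1 to Lamb3 (0.0323) and the chaperonin gene Cct5 to Lama5 (0.0462). For Lama2 the nearest was the histone gene H3c14 (0.279), with a log2 fold change of 3.45 against 4.39 for Lama2. The 1 added to the CPM makes the change of a low gene such as Lama2 smaller in this measure. Of the exon bases of H3c14, 1825 are shared with Gm20634. Lpin1, Chmp1b, Tspan13 and Fbxw5 were nearest to Lama1, Lama3, Lama4 and Lamb2.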

How the data were processed

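RNA was column-purified and sequenced as mRNA libraries, per the labels' protocols. The build was GRCm38 (mm10), per the submitters' processing notes. No source used here names the aligner, the counting program or the annotation. The authors deposited raw counts and FPKM for each library, per the file headers. The same deposited table holds the authors' mean FPKM, the authors' log2 ratio, and their deposited p-value with its FDR, for which no test is named. No column of another sample was present.

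Counts were tested with edgeR 4.0.16 (R 4.3.3) by quasi-likelihood, with filterByExpr and TMM, over 14608 genes; the standard error is the log2 fold change divided by the square root of F. A script of this test was tested on simulated data. CPM are TMM-scaled. Positions, exon lengths and overlaps come from GENCODE M21 on GRCm38 and start-site windows from RefSeq. The laminin members, gene lists and tests were chosen with earlier results of these data known. The named genes are the laminin chains, for each list the 2 called genes of smallest p in each direction, and the nearest profile of each member. Alternatives used DESeq2 1.42.0, limma 3.58.1 (voom, and log2(FPKM + 1) or + 0.1), other scalings and filters, a replicate block, fold minimums and each library left out. FPKM were used for levels between genes. Some genes are not reported here.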

Additional observations from a re-analysis of the deposited data

Results flagged for a closer look

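Values of the 9 laminin chains and Lamc3 (CPM and FPKM) and total counts were examined for 1 library far from the other 3 of its group, by Dixon's test at its 95% critical value. Of 42 sets of 4 values, 7 were past it, where chance gives about 1 in 20 for independent sets. CPM and FPKM of a gene come from the same counts, so these sets are not independent. Replicate 3 of TGF-β alone was the highest for Lama1, at 11.1 CPM and 1.12 FPKM, and for Lama5, at 657.6 CPM and 55.6 FPKM. Lama2 was lowest in chaetocin replicate 2, at 16.6 CPM, which is still far above the 0.572 to 1.15 CPM of the other group. Lamb2 was highest in chaetocin replicate 1 by FPKM, at 21.3, but not by CPM (83.3). That library also had the largest total count of its group, 22591935. Without chaetocin replicate 1 the log2 fold change was -0.88 for Lama1 and -0.12 for Lamb2.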

How the results depend on the processing

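The counts of 2 laminin chains higher and 6 lower were found again with each of the 8 libraries left out. Calls with a fold minimum were fewer by construction. With edgeR's glmTreat against a fold of 1.5, 1 chain was higher and 2 lower, and 3357 and 1492 of all genes. Where a fold of at least 2 was required, 1 chain was higher and 0 lower, and 2884 and 713 of all genes. Without a fold minimum, 6 chains were lower at an unadjusted p under 0.05 in edgeR. DESeq2 also had 6 lower, at an adjusted p under 0.05. With limma on FPKM, at either pseudocount, 3 chains were lower, since Lama1 did not pass the filter and Lama3 (adjusted p = 0.072 and 0.0707) and Lamb2 (0.243) were not called. The 2 chains higher in these limma fits were Lama2 and Lama5 (Lama5 adjusted p = 0.00186 and 0.00188). Lama4 did not pass the filter there. Lama3, Lama5 and Lamb2 were the chains whose calls changed among scalings and units. Over all alternatives without a fold minimum, Lamb1 ranged from -0.77 to -0.61 on the log2 scale, Lamc1 from -0.73 to -0.55, and Lama2 from 1.80 (FPKM, pseudocount 1) to 4.54. Without a filter on FPKM there were 8623 genes higher and 4068 lower in limma, 67.9% of calls higher. With the FPKM filter, at pseudocount 1, that share was 57.6%. In edgeR with TMM it was 52.0% with the filter and 56.7% without a filter. Replicate numbers did not pair the libraries (correlations of same-numbered deviations -0.0137 to 0.0418, 2 of 4 closest to their own number). With a replicate block, 2 chains were higher and 6 lower, and 6105 and 5643 of all genes. Of 16 class shares, 16 moved by over 1 SD with CPM per exon kilobase. Lama2 and Lama4 without chaetocin and Lamc3 rest on under 100 counts a library, which limits their precision. Some chaetocin libraries of Lama1 and Lama4 were also under 100 counts.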
